A study of Mus musculus with 11 samples.

Results

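The 10 selenoprotein genes described here were *Selenow*, *Selenof*, *Selenok*, *Selenos*, *Selenot*, *Selenoh*, *Selenom*, *Gpx1*, *Gpx4* and *Txnrd1*, 10 of the 54146 genes quantified. They were chosen by name from a set of genes in which *Selenow* was already known to differ by genotype, and so were selected on the contrast of *Prdm10* mutant and control embryos. Their genotype differences are therefore given as a description, and the calls counted for them are not independent evidence of a difference. The annotation (GENCODE, GRCm38) marks a selenocysteine codon in 24 mouse genes, and the other 14 are given for comparison.

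The samples were 11 single 8-cell C57BL/6 mouse embryos collected at embryonic day 2.5 from natural matings of *Prdm10* heterozygotes. PRDM10 is a DNA-binding zinc finger protein. The 6 control embryos were *Prdm10* WT/HET, a group in which wild-type and heterozygous embryos were not separated, and the 5 mutant embryos were *Prdm10* KO, with exon 5 deleted on both alleles. Genotypes were read from exon 5 in each embryo's cDNA, all mothers carried 1 deleted allele, and the litter of each embryo is not given in the sources used here. Batch 1 (3 controls, 2 mutants) was amplified for 16 cycles and batch 2 (3 controls, 3 mutants) for 13 cycles, so the isolation batch and the number of cycles cannot be told apart.

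Selenoproteins carry selenocysteine, the selenium analogue of cysteine, usually at the catalytic site of a redox enzyme. It is inserted at a UGA codon, which otherwise ends translation, by a dedicated tRNA, with the help of proteins that bind a stem-loop in the same mRNA. The family includes glutathione peroxidases, thioredoxin reductases and a group of small proteins of the thioredoxin fold, many of which reside in the endoplasmic reticulum (ER). GPX4, which reduces lipid hydroperoxides in membranes, is required for mouse development.

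The coding sequences around the selenocysteine codon are shown because this codon defines the family. The TGA is in capitals, with up to 4 codons on each side, ending at the true stop where it comes first.

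*Selenow*: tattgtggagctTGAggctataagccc
*Selenoh*: cattgtacgagcTGAcgcgtgtacggc
*Selenot*: atttgtgtatccTGAgggtaccggcgg
*Selenom*: acctgtggaggaTGAcagttgaatcgc
*Selenof*: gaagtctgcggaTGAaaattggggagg
*Selenok*: atggctggtggaTGAggaaggtaa
*Selenos*: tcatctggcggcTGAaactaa
*Gpx1*: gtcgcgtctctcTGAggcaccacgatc
*Gpx4*: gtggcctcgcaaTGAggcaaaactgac
*Txnrd1*: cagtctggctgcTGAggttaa

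A cysteine codon lay 3 codons before the TGA in 4 of the 10 genes (*Selenow*, *Selenot*, *Selenoh* and *Selenom*) and in 6 of all 24. In *Selenok*, *Selenos* and *Txnrd1* at most 2 codons separated the TGA from the stop. *Selenow* (ENSMUSG00000041571.9; chromosome 7 from 15917208 to 15922402, minus strand) encodes 88 residues, and its selenocysteine is residue 13, in exon 2 of 6 of the transcript read here.

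PRDM10 binding was mapped by the study in mouse embryonic stem cells (mESCs), and its list of bound genes held *Selenow*, *Selenoh* and *Selenop*. The share of all genes on that list is not given here, and nothing is read from these entries. The study's binding probe and its mutated form are shown with the bases that differ in capitals, since the motif searched here was drawn from them. The form searched first, TGGTNNNNNCC, is looser than the probes define, as it leaves some of the altered bases free.

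WT probe: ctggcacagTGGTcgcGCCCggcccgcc
MUT probe: ctggcacagCAACcgcATTTggcccgcc

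The RefSeq promoters of the 2 bound genes among the 10 (GRCm38.p6, 250 bases before to 50 after the start site, read along the gene) are shown with matches to TGGTNNNNNCC in capitals. They lie at chr7:15922322-15922621 and chr2:84670659-84670958, both on the minus strand.

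*Selenow* promoter: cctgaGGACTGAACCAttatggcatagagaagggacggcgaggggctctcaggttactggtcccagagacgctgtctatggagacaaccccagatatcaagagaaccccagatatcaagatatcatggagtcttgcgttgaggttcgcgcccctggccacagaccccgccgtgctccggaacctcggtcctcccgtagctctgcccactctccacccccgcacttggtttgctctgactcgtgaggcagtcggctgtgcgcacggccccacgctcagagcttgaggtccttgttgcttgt
*Selenoh* promoter: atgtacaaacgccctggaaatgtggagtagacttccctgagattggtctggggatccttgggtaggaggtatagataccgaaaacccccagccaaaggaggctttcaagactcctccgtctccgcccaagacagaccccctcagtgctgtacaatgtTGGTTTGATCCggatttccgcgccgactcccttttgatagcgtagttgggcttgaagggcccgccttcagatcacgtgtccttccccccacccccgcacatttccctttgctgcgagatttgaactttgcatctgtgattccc

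The *Selenow* match reads TGGTTCAGTCC on the strand opposite to the gene and begins 245 bases before the start site. That of *Selenoh* reads TGGTTTGATCC on the strand of the gene, 93 bases before the start site. A peak of the study overlapped both matches. The motif, searched on both strands, occurred in 9 of 31 promoters of the 24 genes (29.0%) and in 4537 of 32851 promoters of that length (13.8%). The 3 promoters of *Selenop* overlap and hold the same site, so that 1 site is counted 3 times among the 9. A peak of the study overlapped that site too. When all 8 altered bases were required (TGGTNNNGCCC), it occurred in 0 of the 31 and in 476 of all (1.45%). *Selenos*, *Txnrd2* and 1 promoter each of *Gpx4* and *Txnrd1* held the first form with no peak of the study, and a match is only a description of the letters.

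Expected counts summed to 3534735 in the shallowest library and 8265840 in the deepest, and *Selenow* itself had 339 to 1171 reads in controls and 39 to 65 in mutants, all assigned without ambiguity. TPM is a transcript level per length, scaled to the same total in each library. *Prdm10* itself ran from 11.1 to 24.8 TPM in controls and from 4.88 to 8.16 TPM in mutants. Its normalised counts, which divide each library by its size factor, overlapped, from 123.9 to 380.5 in controls and from 103.5 to 202 in mutants, and it was not called (-0.66 ± 0.26, SE; DESeq2 adjusted p = 0.215). Its effective length was 2565 to 3357 bases in controls and 4348 to 5051 in mutants. These values cover the whole gene and not exon 5, so they are no direct check of the deletion. The 9 markers of the preimplantation embryo summed to 4932 to 6315 TPM in controls and 5186 to 5935 TPM in mutants, nearly all of it *Dppa3*, and the sum does not show how the others varied. *Pou5f1* had 34.2 to 87.3 TPM in the controls of batch 2 and 59.8 to 144 TPM in its mutants, against 106 to 265 TPM in the controls of batch 1 and 391 and 486 TPM in its mutants. *Nanog* had 8.86 to 40.2 TPM in the controls of batch 2 and 6.10 to 11.15 TPM in its mutants. In batch 1 it had 21.5 to 52.1 TPM in controls and 35.0 and 15.9 TPM in mutants. Of 8 markers of cumulus and granulosa cells, 6 were at 0 in all controls and 4 in all mutants, and the list summed to at most 7.83 TPM, all *Inha* in mutant replicate 2. The 6 oviduct markers summed to 36.9 to 74.7 TPM in controls and 32.5 to 54.5 TPM in mutants, with *Epcam* the highest of them in both. Among them, *Ovgp1* reached 24.2 TPM in control replicate 1 and 30.1 TPM in mutant replicate 3 and at most 0.81 TPM in batch 1. The 6 blood markers summed to 1.71 to 33.6 TPM in controls and 1.24 to 9.62 TPM in mutants. The part of these cells in any result was not tested. In whole embryos, fewer cells with a transcript and less transcript per cell cannot be told apart.

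*Selenow* transcripts, which encode a small redox protein of the thioredoxin fold, were lower in every mutant embryo than in any control. In batch 1 the controls had 152.9, 159 and 150.1 TPM and the mutants 16.1 and 18.2 TPM. In batch 2 the controls had 186, 313 and 325 TPM and the mutants 9.26, 8.62 and 19.1 TPM. The groups did not overlap in either batch, and the lowest control stood far above the highest mutant. The mutant mean was 11.1% of the control mean in batch 1 and 4.48% in batch 2. The controls of batch 2 were spread more widely (274.8 ± 77.1 TPM, SD, n = 3) than those of batch 1 (154.1 ± 4.72 TPM, SD, n = 3), while the mutants lay within 8.62 and 19.1 TPM in both. On the scale of normalised counts, the 6 controls averaged 679.8 ± 314 (SD) and the 5 mutants averaged 44.2 ± 14.6 (SD). The fitted log2 fold change was -3.90 ± 0.30 (SE), or -3.17 ± 0.33 (SE) in batch 1 alone and -4.49 ± 0.37 (SE) in batch 2 alone.

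**Figure D1:**
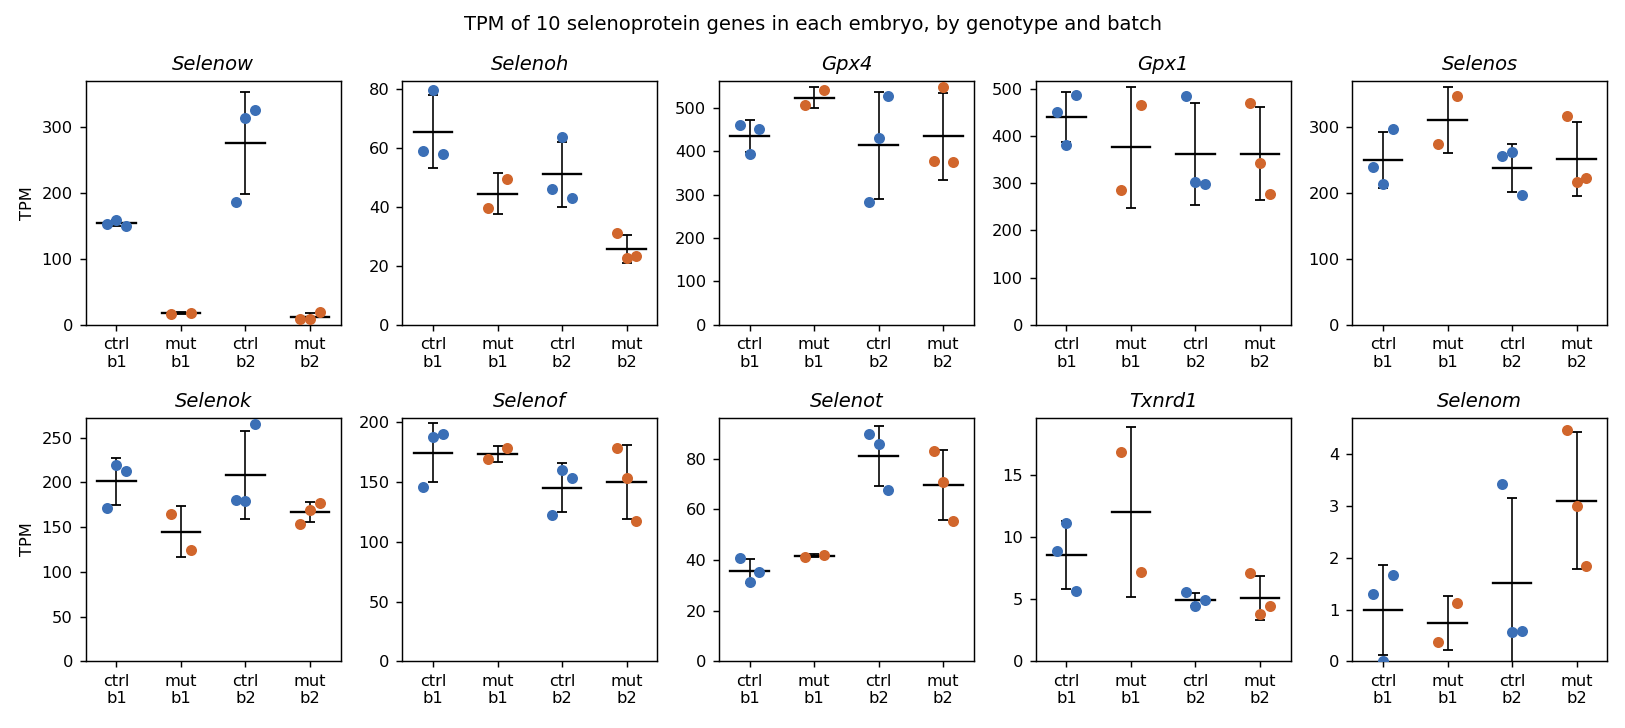
TPM of the 10 genes in single embryos. Each panel is 1 gene, with controls (ctrl, blue) and mutants (mut, orange) of batch 1 (b1) and batch 2 (b2) on the x axis, TPM from 0 on the y axis, black lines for means and bars for SD, cut at 0 for *Selenom*. *Selenow* mutants sit between 8.62 and 19.1 TPM, below all controls, and *Selenot* separates by batch.

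*Selenoh*, which encodes a nucleolar DNA-binding redox protein, was lower in the mutants of each batch. In batch 1 the controls had 59.05, 79.9 and 58.01 TPM and the mutants 39.6 and 49.5 TPM. In batch 2 the controls had 46.1, 63.9 and 43.25 TPM and the mutants 31.1, 22.5 and 23.4 TPM. No mutant overlapped a control of its batch, although mutant replicate 5 of batch 1 was above 2 controls of batch 2. Its log2 fold change was -0.78 ± 0.22 (SE), with averages of 170.9 ± 29.0 normalised counts over the 6 controls and 98.5 ± 24.4 over the 5 mutants (both SD).

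Of the 9 genes of the 10 with a mean normalised count above 10, *Selenow* and *Selenoh* passed an adjusted p under 0.05 in DESeq2, both lower in mutants. Over all 10448 genes tested 1.45% passed, and 0.881% passed as lower, and since the genes were chosen with this contrast known nothing is read from the count. The edgeR test called *Selenow* alone, against 0.334% of 10489 genes. *Selenoh* lost its call in 9 of 11 DESeq2 fits that left out 1 embryo, all but those without control replicate 4 or mutant replicate 5. In TPM the mutants lay below the controls of their batch, in both batches, for *Selenow*, *Selenoh* and *Selenok*, as they did for 1.47% of the 10489 genes with a mean normalised count above 10. In normalised counts this held for the first 2 and not for *Selenok*, beside 1.41% of those genes.

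The ER members were *Selenok* and *Selenos*, whose products sit in the ER membrane with the machinery that returns misfolded proteins to the cytosol, *Selenof*, *Selenom* and *Selenot*. *Selenok* ran from 171 to 265 TPM in controls (median 197) and from 125 to 177 TPM in mutants, and its log2 fold change was -0.34 ± 0.19 (SE). *Selenos* ran from 196 to 296 TPM in controls (median 247) and from 216 to 347 TPM in mutants, with a log2 fold change of 0.18 ± 0.18 (SE). *Selenof*, whose product binds the glycoprotein-folding sensor UGGT, ran from 122 to 190.3 TPM in controls and from 117 to 179 TPM in mutants (-0.04 ± 0.17, SE). Over both batches the mutant and control ranges of these 3 genes overlapped, although within each batch the *Selenok* mutants lay below the controls in TPM. *Selenot*, an ER-anchored member of the thioredoxin fold, averaged 58.4 ± 26.2 TPM over the 6 controls and 58.5 ± 18.2 TPM over the 5 mutants (both SD) (-0.02 ± 0.16, SE). *Selenom* was near the limit of detection, at 0 to 3.42 TPM in controls and 0.38 to 4.48 TPM in mutants, and was not tested.

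The enzymes were led by the glutathione peroxidases. *Gpx4* had 393 to 460.4 TPM in the controls of batch 1 and 282 to 528 TPM in those of batch 2, against 508 and 541 TPM in the batch 1 mutants and 376 to 549 TPM in the batch 2 mutants (0.14 ± 0.20, SE). Its transcribed processed pseudogene *Gpx4-ps2* was assigned 99.1 to 183 TPM, and the sampling SD that RSEM reports for this assignment was 1.52% to 2.72% of the *Gpx4* count and 5.62% to 11.2% of the pseudogene count. By this measure the division of reads was less certain for the pseudogene than for *Gpx4*, and whether reads were assigned to the right copy was not tested. *Gpx1*, which reduces hydrogen peroxide in the cytosol, ran from 297 to 486 TPM in controls and from 277 to 469 TPM in mutants (-0.07 ± 0.20, SE). *Txnrd1*, the cytosolic thioredoxin reductase, ran from 4.45 to 11.1 TPM in controls and from 3.81 to 16.8 TPM in mutants (0.21 ± 0.30, SE). None of these 3 enzymes had mutants apart from controls in both batches.

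**Figure D2:**
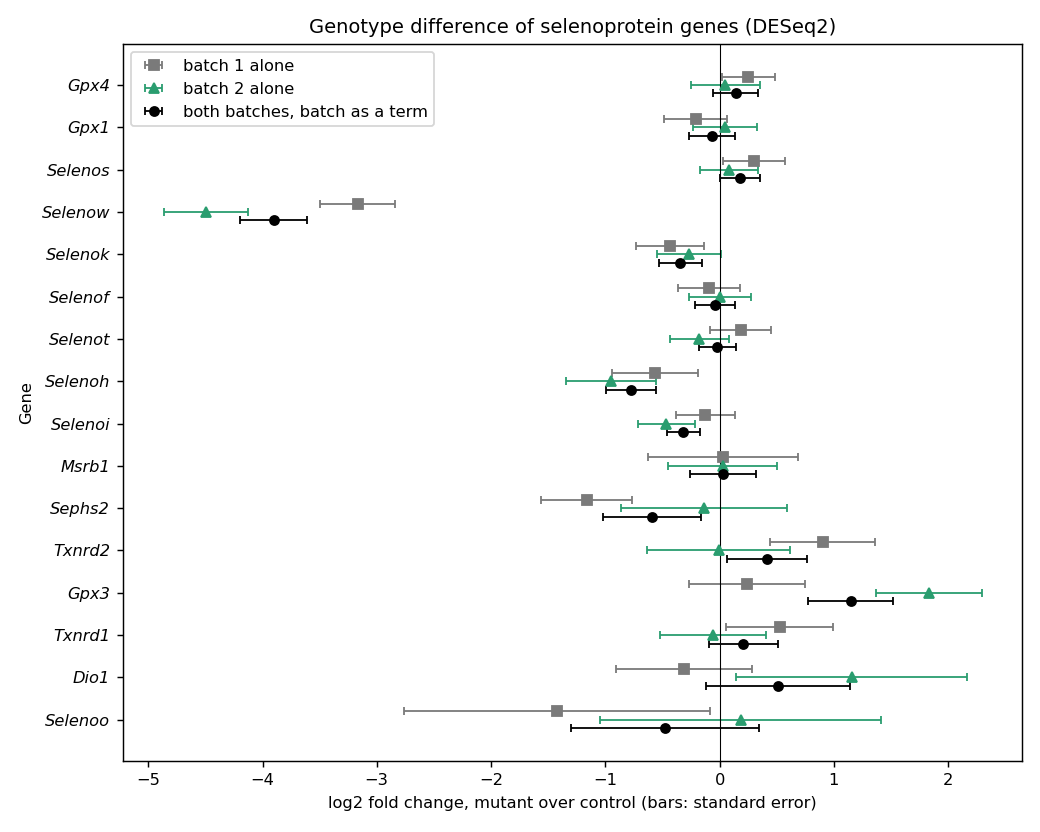
Genotype differences of the 16 tested selenoprotein genes. The x axis is the DESeq2 log2 fold change of mutant over control embryos with its SE as bars, for batch 1 alone (grey squares), batch 2 alone (green triangles) and both with batch as a term (black circles), and genes are ordered by control TPM. *Selenow* stands at -3.90, and with both batches the other 15 lie between -0.78 and 1.15.

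The order of levels within the family was read per length, from TPM in the 6 controls. *Gpx4* (424.6 ± 82.5 TPM, SD, n = 6) and *Gpx1* (400.8 ± 86.9 TPM) came first, and their ranges overlapped. *Gpx1* lay just above the range of the next gene, *Selenos*, and *Gpx4* did not. The range of *Gpx1* overlapped that of *Selenow*, which was the higher in control replicates 2 (313 against 302 TPM) and 3 (325 against 297 TPM). *Selenos* (244 ± 35.95 TPM), *Selenow* (214 ± 82.2 TPM), *Selenok* (205 ± 35.3 TPM) and *Selenof* (159.9 ± 25.9 TPM) followed, and neighbours among these 4 overlapped. A gap separated *Selenof* from *Selenot* (58.4 ± 26.2 TPM), *Selenoh* (58.4 ± 13.2 TPM) and *Selenoi* (50.9 ± 12.1 TPM), which overlapped, and a further gap followed. In all, 6 of the 24 genes averaged over 100 TPM in controls, 11 over 10 TPM and 9 under 2 TPM. By mean TPM *Selenow* ranked 4 in controls and 11 in mutants. Within batches the order differed, and *Selenow* ranked 6 among the controls of batch 1, below *Selenok* and *Selenof*, and 3 among those of batch 2, above *Selenos*. *Gpx1* and *Gpx4*, and *Selenoh* and *Selenot*, also exchanged places between batches.

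**Figure D3:**
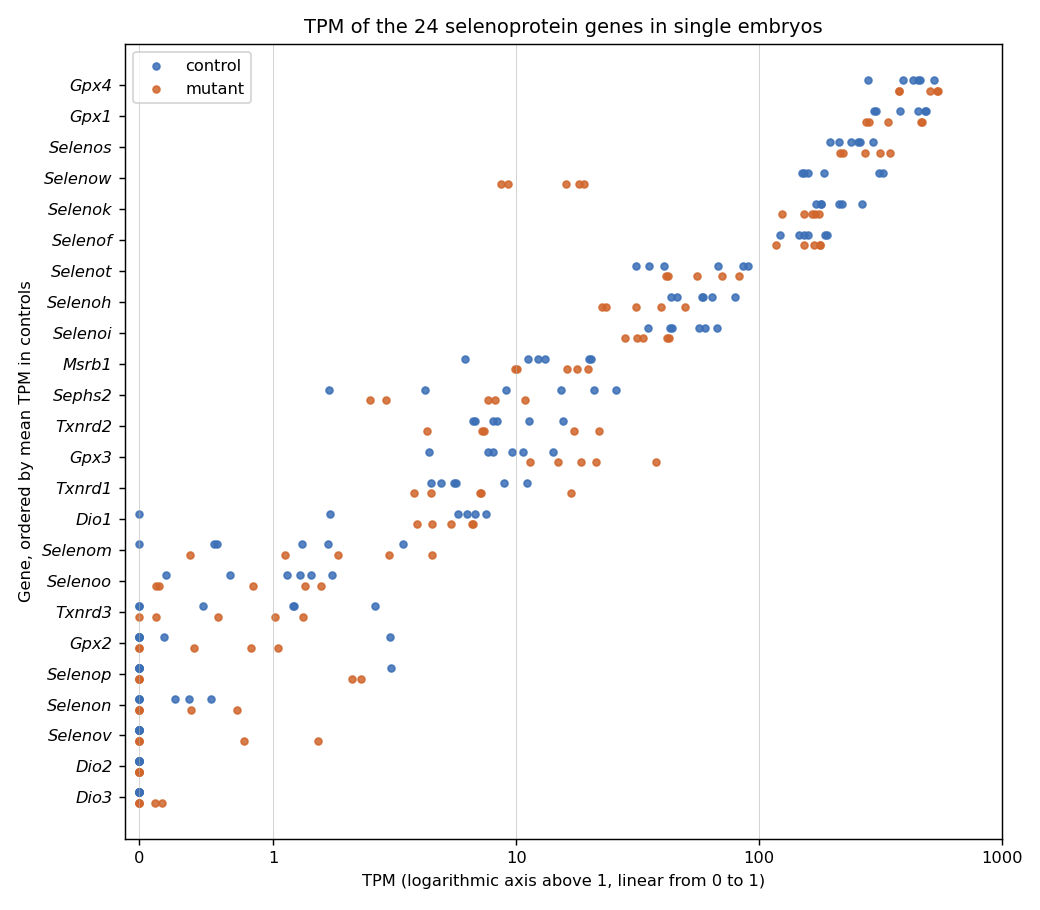
Levels of all 24 selenoprotein genes in single embryos. The x axis is TPM (logarithmic above 1, linear from 0 to 1), genes are ordered on the y axis by control mean, and each point is 1 embryo (controls blue, mutants orange). Controls and mutants intermingle for most genes, while the 5 *Selenow* mutant points lie between 8.62 and 19.1 TPM.

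Together the 24 genes summed to 1877 ± 94.7 TPM over the 6 controls and 1645 ± 191 TPM over the 5 mutants (both SD). These sums overlapped, from 1745 to 1983 in controls and from 1359 to 1879 in mutants. *Selenow* made up 7.57% to 16.5% of that sum in controls and 0.524% to 1.40% in mutants. Without *Selenow* the sums were 1663 ± 97.01 and 1630.5 ± 192 TPM, and they overlapped, from 1559 to 1833 in controls and from 1340 to 1860 in mutants. The 10 genes held 94.4% ± 1.03 of the family's TPM in the 6 controls and 94.03% ± 0.353 in the 5 mutants (both SD).

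**Figure D4:**
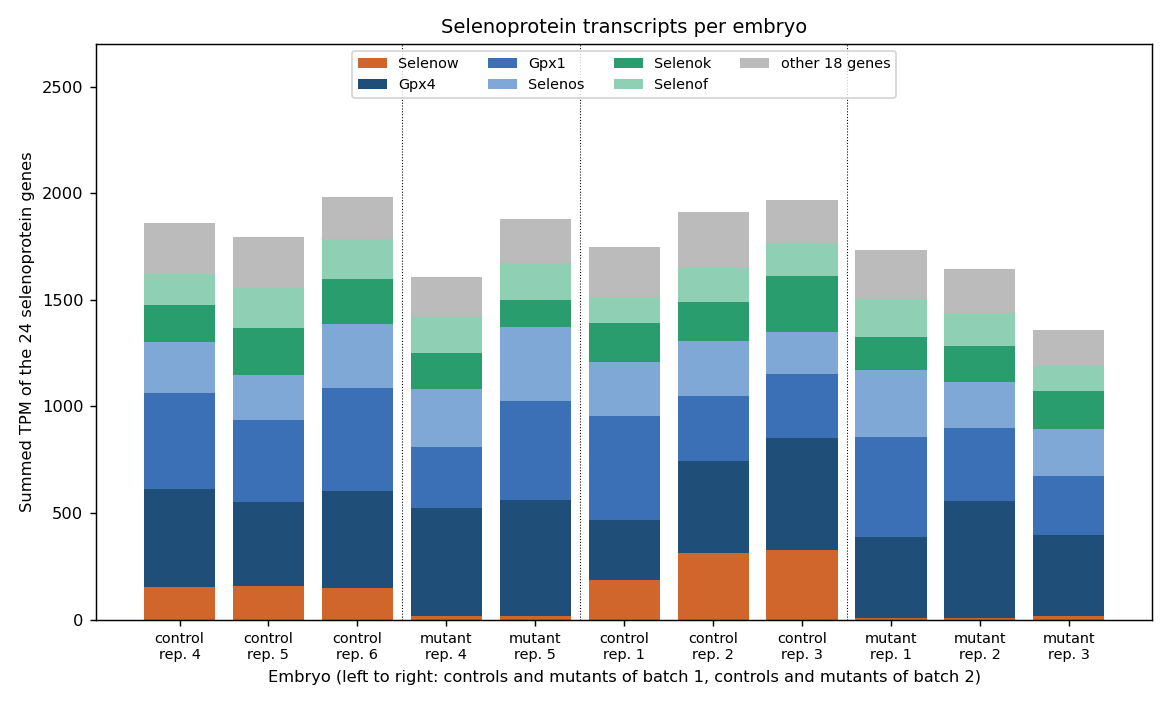
Selenoprotein transcripts in each embryo. Bars are stacked TPM from 0, 1 bar per embryo, for *Selenow*, the 5 other genes over 100 TPM and the remaining 18 genes together, with dotted lines between the genotypes and batches. The orange *Selenow* segment is 7.57% to 16.5% of the bar in controls and at most 1.40% in mutants.

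The other 14 selenoprotein genes were then compared, with p-values adjusted over all genes. Of these, 7 were tested, 0 passed the DESeq2 threshold, 2 (*Gpx3* and *Selenoi*) had an unadjusted p under 0.05, and edgeR called 0. Beside them, 1.45% of all 10448 genes passed in DESeq2, 1248 had an unadjusted p under 0.05, and edgeR called 0.334% of 10489. *Gpx3*, the secreted glutathione peroxidase, had 18.6, 37.6 and 21.2 TPM in the mutants of batch 2, above the controls at 8.01, 9.64 and 4.36 TPM. In batch 1 its mutants had 14.8 and 11.35 TPM and its controls 7.63, 10.6 and 14.2 TPM, which overlapped. Its log2 fold change was 1.15 ± 0.37 (SE; DESeq2 adjusted p = 0.0925). It passed in the batch 2 embryos alone, at 1.83 (DESeq2 adjusted p = 0.0275). Leaving out control replicate 6 also brought it past the threshold, at 1.33 (DESeq2 adjusted p = 0.0328).

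*Selenoi*, an enzyme of phosphatidylethanolamine synthesis, had a log2 fold change of -0.32 ± 0.15 (SE; DESeq2 adjusted p = 0.357). *Sephs2*, which makes the selenium donor for selenocysteine and is itself a selenoprotein, had 25.7, 15.2 and 20.9 TPM in the controls of batch 1 against 10.8 and 7.64 TPM in the mutants. In batch 2 its controls had 9.12, 1.70 and 4.20 TPM and its mutants at most 8.21 TPM, so the groups overlapped there (-0.59 ± 0.43, SE; DESeq2 adjusted p = 0.641). *Txnrd2*, the mitochondrial thioredoxin reductase, had a log2 fold change of 0.41 ± 0.35, the methionine sulfoxide reductase *Msrb1* of 0.03 ± 0.29, the deiodinase *Dio1* of 0.51 ± 0.63 and *Selenoo* of -0.48 ± 0.82 (all SE), and none passed. Without strand in the library, reads of a gene cannot be told from those of a gene that overlaps it on the opposite strand, as *Tubgcp6* does *Selenoo*. *Dio2* was listed at 0 in all 11 libraries, and *Selenov* and *Dio3* in all 6 controls.

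Genes around the family were counted in the same fit, in which 151 of all 10448 genes (1.45%) passed and 1248 had an unadjusted p under 0.05. Of 13 genes of selenium handling and selenocysteine synthesis and insertion, 11 were tested and 0 passed in DESeq2 or edgeR, with 0 at an unadjusted p under 0.05 and a median log2 fold change of 0.12, beside -0.0012 over all genes tested. The 4 most abundant were *Rpl30* (-0.15), *Sephs1* (0.15), *Sars* (0.22) and *Trnau1ap* (-0.02). Of 17 genes of the glutathione and thioredoxin systems, 15 were tested and 0 passed in DESeq2 or edgeR (1 at an unadjusted p under 0.05, median -0.12). *Txnl1* (0.14), *Txn2* (0.06), *Gsr* (-0.12) and *Txn1* (-0.48) were the most abundant. Of 7 lipid peroxidation genes 6 were tested and 0 passed in either tool (0 at an unadjusted p under 0.05, median 0.15), led by *Tfrc* (0.31), *Fth1* (0.17), *Slc3a2* (0.26) and *Lpcat3* (0.14). Of 8 cysteine-containing relatives only *Mien1* (0.06) and *Msra* (-0.30) were tested, and 0 passed in either tool or had an unadjusted p under 0.05.

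Among 12 ER partners of *Selenok*, *Selenos* and *Selenof*, 10 were tested, 1 fell and 0 rose (3 at an unadjusted p under 0.05, median -0.13). In the same fit 0.881% of all 10448 genes passed as lower and 1248 had an unadjusted p under 0.05. The gene that fell was *Syvn1*, which encodes the ubiquitin ligase of ER-associated degradation and is on the study's bound list. It had 3.40, 4.43 and 4.87 TPM in the controls of batch 1 and 1.63 and 0.65 TPM in the mutants. In batch 2 it had 15.1, 5.26 and 6.18 TPM in controls and 2.67, 4.74 and 2.48 TPM in mutants, with no overlap within either batch. Its log2 fold change was -1.87 ± 0.39 (SE; DESeq2 adjusted p = 0.000447), and edgeR gave an adjusted p of 0.0686. *Vcp* (0.25), *Ufd1* (-0.10), *Uggt1* (0.16) and *Derl1* (-0.06), the most abundant of the list, did not pass.

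Of 11 genes with bodies within 100 kb of *Selenow*, 5 were tested and 0 passed in DESeq2 or edgeR, with 0 at an unadjusted p under 0.05. The nearest tested on either side were *Crxos*, 13.2 kb away (0.04 ± 0.12, SE; 1667 to 2445 TPM in controls and 1748 to 2586 TPM in mutants), and *Nop53*, 13.8 kb away (0.19 ± 0.22, SE). *Ehd2* (0.03 ± 0.32), *Bicra* (1.12 ± 0.67) and *Obox6* (-0.33 ± 0.18) lay farther out. All 5 had mutant and control TPM ranges that overlapped.

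Levels were next compared between batches, a contrast that did not choose the genes. Of the 16 selenoprotein genes tested, 3 were higher and 2 lower in batch 2 at a DESeq2 adjusted p under 0.05, while 27.9% of all 10448 genes passed. Of the 9 tested among the 10, *Selenot* passed in DESeq2. *Selenoh* was also called, lower in batch 2, by limma on log2(TPM + 1) (-0.55, adjusted p = 0.0477) but not in DESeq2 (-0.29 ± 0.22, SE; adjusted p = 0.362), and *Txnrd1* (-0.73 ± 0.30, SE; DESeq2 adjusted p = 0.0621) passed as lower when control replicate 1 or 6 was left out. *Selenot* had 31.2 to 42.1 TPM in the 5 embryos of batch 1 and 55.4 to 89.9 TPM in the 6 of batch 2, and no embryo overlapped between batches. In normalised counts the means were 494 ± 54.7 (SD, n = 5) and 1156 ± 180.5 (SD, n = 6), a log2 fold change of 1.23 ± 0.16 (SE; DESeq2 adjusted p = 8.23e-12). This call held under all 20 alternatives run.

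*Msrb1* was also higher in batch 2 (1.08 ± 0.29, SE; DESeq2 adjusted p = 0.0021), with normalised counts that did not overlap. *Selenot* and *Msrb1* were the 2 of the 16 tested whose batches did not overlap in normalised counts, as was found for 13% of the 10489 genes with a mean normalised count above 10. *Selenoi* was higher (0.47 ± 0.15, SE; DESeq2 adjusted p = 0.00914) and *Sephs2* lower (-1.35 ± 0.43, SE; DESeq2 adjusted p = 0.0111). *Txnrd2* was lower as well (-0.90 ± 0.35, SE; DESeq2 adjusted p = 0.0417), a call that edgeR did not make (adjusted p = 0.0804). It was lost in 7 of 11 DESeq2 fits that left out 1 embryo, those without control replicate 1 or 5 or without any 1 of the 5 mutants. On log2(TPM + 1) the median of all genes shifted by -0.20 between the batches, and *Selenoi* then stood at -0.11, above that median but below 0. With an offset for effective length, which ran from 2179 to 3997 bases for *Selenoi*, its difference was 0.10 and it was not called (DESeq2 adjusted p = 0.774). *Selenow* had a batch difference of 0.52 ± 0.29 (SE; DESeq2 adjusted p = 0.202).

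**Figure D5:**
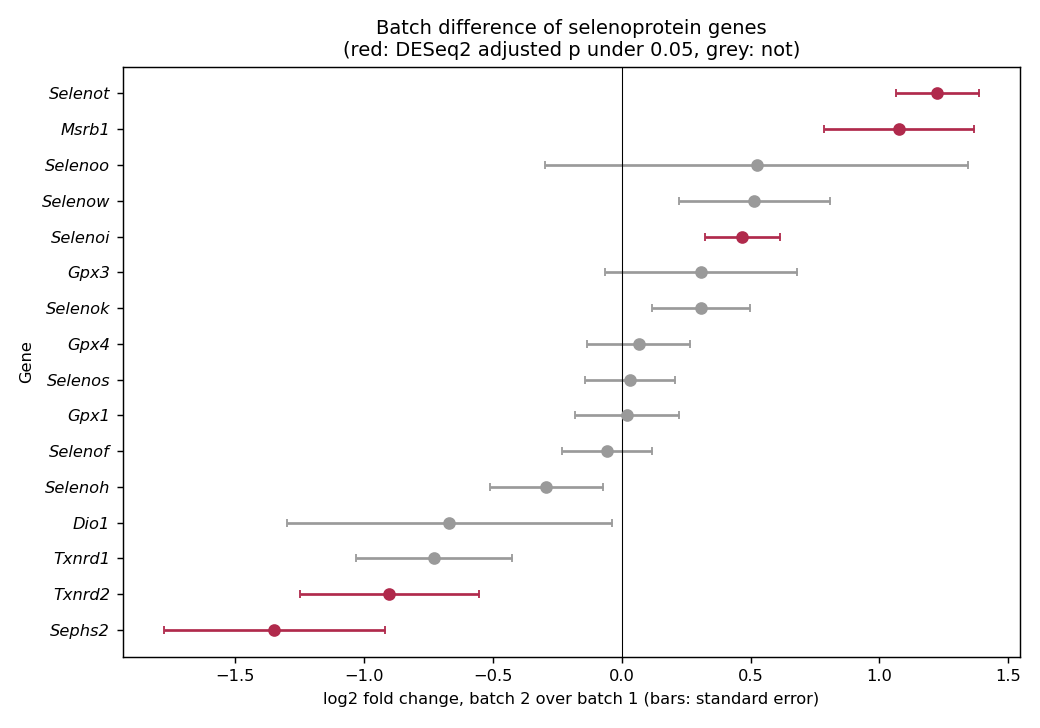
Batch differences of the 16 tested selenoprotein genes. The x axis is the DESeq2 log2 fold change of batch 2 over batch 1 with genotype as a term, bars are SE, and red points passed an adjusted p under 0.05. *Selenot* at 1.23 and *Sephs2* at -1.35 are the extremes.

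Whether the genotype difference itself differed between batches was asked with an interaction term. It passed for 0 of the 16 genes in DESeq2 and 0 in edgeR, beside 0.0382% of 10472 genes in DESeq2. An unadjusted p under 0.05 was found for 450 of those 10472 genes and for 2 of the 16. These were *Selenow* (-1.32 ± 0.51, SE; unadjusted p = 0.00924 in DESeq2, adjusted p = 0.9997) and *Gpx3* (1.60 ± 0.66, SE; unadjusted p = 0.0154 in DESeq2, adjusted p = 0.9997).

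The genes most like *Selenow* across the 11 embryos were named by Pearson correlation of log2(normalised count + 1) less the batch mean, among 10488 genes. They were *Tcp11l2* (r = 0.96), *Uchl3* (0.96), *Pkn3* (0.94), *Eef1d* (0.94) and *Pfdn4* (0.94), each with a lower mean in mutants. The values carry the difference between the genotypes and are a description. Of the other 15 selenoprotein genes compared, *Selenoh* ranked 31 (r = 0.88), *Selenoi* 102 (r = 0.79) and *Selenok* 728 (r = 0.56), and *Gpx3* came last of them at rank 10417 (r = -0.79). With the mean of each batch and genotype also removed, the leading genes were *Serpina1e* (0.97), *Mtif2* (0.94), *Lcmt1* (0.94), *Cetn2* (0.92) and *Mettl1* (0.92), and *Selenoh* fell to rank 4970 with r = 0.02. The 2 lists shared no gene. Each names the highest of 10488 genes, a choice that by itself yields high values, and nothing is read from them. *Serpina1e* and *Tcp11l2* also had few reads, with mean normalised counts of 11.6 and 14.2.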

How the data were processed

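Single-embryo Smart-seq2 libraries, which do not mark strand and carry no molecular identifiers, were sequenced as single 75-base reads. Per the study's methods the authors mapped them to GRCm38.p6 with STAR (version 2.6.0c) and quantified GENCODE vM18 genes with RSEM. The deposited table of each embryo holds the expected count, the TPM, the effective length and a posterior SD of the count. The authors' deposited comparison table holds their own fold changes and p-values and was not used. Symbols, coordinates and selenocysteine codons came from GENCODE vM21 of the same build, and promoters came from RefSeq.

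Groups and batches came from the labels. Expected counts were rounded and fitted for all genes with DESeq2 (version 1.42.0, R 4.3.3), with batch and genotype as terms, a Wald test, log2 fold changes left unshrunken and p-values adjusted by Benjamini-Hochberg. A call required an adjusted p below 0.05 together with a baseMean (the average normalised count) over 10. Batch and interaction terms were tested in the same way. The other tests tried were limma (version 3.58.1) on TPM with a pseudocount of 1 or 0.1 before the log2, and edgeR's quasi-likelihood test (version 4.0.16). The DESeq2 fit was also repeated with TMM factors, with offsets for effective length, without Cook's filter, without the batch term, within each batch, with baseMean cutoffs of none and 100, after requiring 10 counts in 5 libraries, and without each embryo in turn. Fits were tested on simulated data, where the share of false calls was well above the nominal 5% in DESeq2 and closer to it in edgeR. DESeq2 calls that edgeR did not make are therefore the less certain.

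The members and lists were chosen with earlier results of these data known. Named genes were the 10 members, the other selenoprotein genes with a baseMean above 10, from each list those called and the 4 of highest baseMean, neighbours with a baseMean above 10, pseudogenes of members over 1 TPM, and the 5 genes most correlated with *Selenow* by each measure. The genes *Gss*, *Srxn1*, *Dppa3*, *Pou5f1*, *Nanog*, *Ovgp1*, *Epcam*, *Inha*, *Tubgcp6*, *Dio2*, *Dio3* and *Selenov* were named after their values were seen. Each library was 1 embryo, and no pair of a group agreed within sampling noise. Whether embryos shared a litter is not given, so p-values measure the spread between these embryos. Library totals of 3534735 to 8265840 expected counts limit the precision of genes with few reads, such as *Selenom*.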

Additional observations from a re-analysis of the deposited data

Results flagged for a closer look

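In 32 groups of embryos (16 selenoprotein genes with a baseMean above 10, in controls and in mutants), 1 embryo stood apart from the others of its group, and chance alone marks about 1 in 20 groups. *Txnrd1*, the cytosolic thioredoxin reductase, was at 16.8 TPM in mutant replicate 4, while the nearest mutant was at 7.19 TPM and the controls reached 11.1 TPM. The gap was 0.740 of the range of the 5 mutants, against a critical value of 0.71. The groups pooled both batches, and the critical value takes no account of batch. Mutant replicate 4 and the nearest mutant were those of batch 1, while the mutants of batch 2 ran from 3.81 to 7.11 TPM.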

How the results depend on the processing

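As a description of a gene selected on this contrast, the *Selenow* log2 fold change ran from -4.49 to -3.17 over 23 alternatives, and its mutant mean was 6.65% of the control mean in TPM and 6.51% in normalised counts. The count of called members fell from 2 to 1, with *Selenoh* lost, in edgeR, in limma with either pseudocount, with at least 10 counts in 5 libraries, without a batch term and in each batch alone, and was 1 to 2 when 1 embryo was left out. *Selenoh* kept its direction throughout (-0.95 to -0.56). Among the other selenoprotein genes the count rose from 0 to 1 (*Gpx3*) in batch 2 alone, and was 0 to 1 when 1 embryo was left out. The partner lists gave 0 calls in place of 1 (*Syvn1*) with a baseMean above 100, in edgeR, in limma with either pseudocount, without a batch term and in batch 2 alone, and 1 to 2 when 1 embryo was left out, where *Gss* was the second without control replicate 6 or mutant replicate 4. In batch 1 alone the 1 call was *Srxn1*. Batch calls numbered 5, 4 to 6 when 1 embryo was left out, 2 with a baseMean above 100 and 3 with the effective-length offset, where *Selenoi* and *Txnrd2* were lost. *Selenoi* reversed between batches in limma, at -0.11 with either pseudocount. The stricter motif gave 0 promoters in place of 9. Machinery, neighbour and interaction counts stayed at 0 under every alternative run. No paired analysis was possible because replicate numbers followed the order of the records and named no litter. Where no cause is plain from fewer genes or embryos, the cause was not tested. The counts of all genes called ranged with the test, from 151 in DESeq2 to 35 in edgeR and 22 in limma on log2(TPM + 1), 51 without a batch term, 78 and 48 in batches 1 and 2 alone, and 90 (without mutant replicate 2) to 265 (without control replicate 2) when 1 embryo was left out.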
